A study of Mus musculus with 4 samples.

Results

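The cycling cells of the day-7 infarct were 845 of the 31295 cells kept from 3 infarct libraries. They were chosen by their transcripts, as cells with at least 1 unique molecular identifier (UMI, which marks 1 captured transcript) in 4 or more of 7 proliferation genes, Mki67, Top2a, Birc5, Ube2c, Cenpf, Prc1 and Pclaf, and fewer than 5 UMIs of Ctsk, the osteoclast collagenase cathepsin K. They were compared, within each library, with 25362 cells of the same hearts that had 0 UMIs of all 7 genes and fewer than 5 of Ctsk, here called non-cycling cells. The cells came from CSF1R-EGFP+ mice aged 12 to 16 weeks, in which the Csf1r promoter drives a green reporter, and were sorted as EGFP+ and Ly6G-. Each infarct library was 1 heart taken 7 days after surgical ligation of the left coronary artery, and 1 baseline library pooled 3 hearts of reporter mice without surgery. Every group thus carried the reporter, which also labels monocytes, dendritic cells and some granulocytes, so the sort does not single out macrophages.

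Tissue macrophages can divide in place, and in a healing infarct they are also replenished by monocytes from blood. A dividing cell copies its DNA in S phase with the MCM helicase and nucleotide-making enzymes, then condenses and separates its chromosomes in mitosis. The E2F factors switch on genes of the first step, and the genes of mitosis are held back by the DREAM complex at a promoter element called CHR and are driven through CCAAT boxes by the factor NF-Y. Csf1r is the receptor through which macrophages receive their survival and growth signal.

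The letters before the start sites of 3 cell-cycle genes are printed as examples, chosen because they hold the searched motifs: Top2a and Mki67, which helped choose the cells, and the S phase gene Mcm6. Each is the 250 bases before the annotated gene start, from RefSeq on GRCm38.p6, written 5′ to 3′ in the direction of the gene, with the searched motifs in capitals. The motifs were CHR (TTTGAA or TTCGAA), the CCAAT box (CCAAT) and E2F (GGCGGGAA or TTTGGCGC), each on both strands, so that ATTGG is a CCAAT box and TTCAAA a CHR read from the other strand. Top2a, the enzyme that untangles chromosomes, lies on the minus strand at chr11:99024190-99024439. Mki67, which coats mitotic chromosomes, lies on the minus strand at chr7:135716380-135716629. Mcm6, a subunit of the replication helicase, lies on the minus strand at chr1:128359706-128359955.
Top2a: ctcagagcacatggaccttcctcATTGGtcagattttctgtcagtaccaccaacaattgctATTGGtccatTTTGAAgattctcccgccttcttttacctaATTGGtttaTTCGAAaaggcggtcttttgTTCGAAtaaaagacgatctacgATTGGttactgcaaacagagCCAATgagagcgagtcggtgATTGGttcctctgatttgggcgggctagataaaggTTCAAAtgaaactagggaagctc
Mki67: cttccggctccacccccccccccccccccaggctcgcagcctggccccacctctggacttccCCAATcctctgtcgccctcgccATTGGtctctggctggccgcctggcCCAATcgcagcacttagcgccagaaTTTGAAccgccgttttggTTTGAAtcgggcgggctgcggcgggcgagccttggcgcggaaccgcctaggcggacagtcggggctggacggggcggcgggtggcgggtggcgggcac
Mcm6: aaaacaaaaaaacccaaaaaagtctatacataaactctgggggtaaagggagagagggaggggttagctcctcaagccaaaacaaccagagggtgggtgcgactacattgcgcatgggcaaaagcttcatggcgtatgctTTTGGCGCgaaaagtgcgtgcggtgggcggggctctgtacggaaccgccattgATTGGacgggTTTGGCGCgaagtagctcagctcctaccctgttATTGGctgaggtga

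Top2a held 4 CHR and 6 CCAAT motifs, Mki67 held 2 and 3, and Mcm6 held 2 CCAAT and 2 E2F motifs. Of 27025 promoters of this length, 17.4% held a CHR, 34.5% a CCAAT box and 2.29% an E2F motif. Of the 7 rule genes, counted at their first listed start, 3 held a CHR (Mki67, Top2a and Ube2c), 6 a CCAAT box and none an E2F motif. Prc1 held a CHR only before its other listed start, and Birc5 held none of the motifs. Among 51 mitosis genes with a promoter in the table, 16 held a CHR, 34 a CCAAT box and 1 an E2F motif. Among 41 replication genes the counts were 7, 26 and 7, so most genes of both lists held neither a CHR nor an E2F motif, and no difference between the lists was tested. A match describes these letters and does not show that a factor binds there.

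Cycling cells made up 2.13% of the kept cells of infarct 1 (221 cells, exact 95% binomial interval 1.86 to 2.42), 2.68% of infarct 2 (289 cells, 2.38 to 3.00) and 3.31% of infarct 3 (335 cells, 2.97 to 3.68). Mki67 was found in 97.3%, 97.2% and 98.5% of them, and the least often found gene, Cenpf, in 75.6%, 72.7% and 74.6%. Just inside the rule, with 4 genes, were 38, 59 and 64 cells, and just outside it, with 3 genes, 47, 52 and 85, while all 7 genes were found in 110, 142 and 153 cells. The Ctsk limit removed 0, 16 and 1 further cells. The rule favours cells with many UMIs, and cycling cells had medians of 15783, 15538 and 15592 UMIs against 8271.5, 8210.5 and 8159.5 in non-cycling cells. All levels and tests therefore use cells thinned to 2000 UMIs, 839 cycling and 23015 non-cycling cells in all, which loses the 6 cycling cells below that number. Applied to cells already thinned, the rule kept 1.18%, 1.31% and 1.6% of the cells of infarcts 1, 2 and 3.

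The whole infarct libraries held 88157753 to 97944428 UMIs in 10144 to 10804 barcodes, and the baseline library 71093963 UMIs in 10314. Any pair of libraries, the baseline included, shared 26 to 34 barcodes. Cells with the highest doublet scores, 8.1% to 8.63% of each infarct library, were kept in the main analysis. They included 24.9%, 11.4% and 6.87% of the cycling cells and 7.36%, 8.01% and 7.88% of the non-cycling cells. The part of doublets in the results was not tested cell by cell, and counts without these cells are given with the tests. Infarct 2 held few cells of the Saa3 and Arg1 cluster described next, and each result that rests on a library is given with the value without it.

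The name macrophage held for most cycling cells but not for all. Complement C1q, a product of tissue macrophages, was detected with at least 2 of its 3 genes in 86.4% of thinned cycling cells and 84.5% of non-cycling cells. As background, C1qa had a UMI in 30.8% and C1qb in 41.3% of the granulocyte-like cells described below, at the same depth. At least 5 of 16 macrophage identity genes were found in 91.5% and 96.6%. Csf1r itself had a UMI in 55.5% of cycling cells and 73.4% of non-cycling cells, and Adgre1, which encodes F4/80, in 42.2% and 57.2%. T cell Cd3e was found in 0 of 839 cycling cells, and the neutrophil gene S100a9 in 1.07% against 1.01%. The largest exception was a dendritic-like portion, 90 of the 839 cells, taken up below. A few cells were placed with monocyte-like cells led by Vcan, Plac8 and Hp, of whose non-cycling cells 20.2% had a UMI of C1qa.

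To describe which states cycled, the non-cycling cells were clustered without cell-cycle genes, and each cycling cell was given to the cluster of most of its 25 nearest non-cycling cells. For 94.0% of the 839 cells over 50% of the neighbours agreed. Cycling cells were found across nearly the whole range of states. Of the 839, 179 were placed with cells led by Spp1, Gpnmb and Mmp12, 136 with cells led by the MHC class II genes H2-Eb1, H2-Aa and Cd74, and 106 with cells led by Ccl8, Fcrls and Stab1. The Saa3, Marco and Arg1 cluster took 101, the Gdf15, Fcrls and Ccl3 cluster 93, the Dusp2, Ccl4 and Egr1 cluster 87, and the dendritic-like Cd209a, Klrd1 and Ifitm1 cluster 86. The remaining 51 were 33 in the monocyte-like Ccl6, Tppp3 and Plac8 cluster, 11 in the monocyte-like Vcan, Plac8 and Hp cluster, 4 in a dendritic-like Ccr7 and Fscn1 cluster and 3 in the interferon-like Rsad2 and Ifit2 cluster. Among 172 comparator cells of the granulocyte-like S100a9 cluster there was no cycling cell, which allows a share of up to 2.12%, and these cells had few UMIs, with a median of 2773.

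The share of cells that cycled was highest, in all 3 hearts, in the clusters led by Cd209a and by Spp1 and Gpnmb, apart from the Saa3 cluster in infarcts 2 and 3. In the Cd209a cluster 8.24%, 7.84% and 11.2% of cells cycled in infarcts 1, 2 and 3. In the Spp1 and Gpnmb cluster, which is marked by osteopontin and lipid-associated genes, 7.00%, 8.25% and 8.81% cycled. The intervals of these clusters overlapped within each heart, so their order is not set. In the MHC class II, Dusp2, Ccl8 and Gdf15 clusters the shares ran from 2.36% to 3.63% over the 3 hearts, below the lowest interval bound of the Spp1 and Gpnmb cluster in each, and the 4 clusters were not told apart by their intervals. The Vcan, Plac8 and Hp cluster, whose leading genes include Ace and Itgal of non-classical monocytes, was low in every heart, with 1.11%, 0.56% and 0.27%, and its intervals overlapped those of the interferon-like cluster (0% to 1.39%). In the other monocyte-like cluster, led by Ccl6, Tppp3 and Plac8, the shares were 0.941%, 1.53% and 5.12%, so infarct 3 lay apart from infarct 1, with intervals of 2.89 to 8.3 and 0.487 to 1.64.

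The place of the Spp1 and Gpnmb cluster depended on whether the rule was applied before or after thinning. Its cells had a median of 12121 UMIs against 7267 to 9580 in the other macrophage, monocyte-like and Cd209a clusters, and the part of depth was not tested. Expressed as its share of cycling cells over its share of non-cycling cells, the cluster was over-represented by 2.68, 2.57 and 2.03 in infarcts 1, 2 and 3. With the rule applied after thinning, as at least 3 genes in 2000 UMIs, the mean of this ratio went from 2.43 to 1.78, and with at least 4 genes to 1.49. The thinned shares were 2.78%, 4.29% and 3.01% for the Spp1 and Gpnmb cluster and 1.72%, 1.37% and 1.37% for the MHC class II cluster. For the Ccl8 cluster they were 1.93%, 1.38% and 2.1%. In infarcts 1 and 3 the interval of the Spp1 and Gpnmb cluster overlapped those of the MHC class II, Ccl8, Dusp2 and Gdf15 clusters. For the MHC class II cluster of infarct 3 this was only at the edge. In infarct 2 the interval of the Spp1 and Gpnmb cluster (3.1 to 5.78) lay above those of all these clusters. With 4 genes the Spp1 and Gpnmb cluster stood at 1.78% in infarct 3 (1.02 to 2.88), beside 1.56% in the Dusp2 cluster (0.978 to 2.35). The Cd209a cluster did not move in the same way, with a mean ratio of 2.76 ± 0.392 (SD, n = 3) before and 2.66 ± 0.33 after thinning, and thinned shares of 4.94%, 4.48% and 5.81%.

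The Saa3, Marco and Arg1 cluster, whose leading genes encode an acute-phase protein, a scavenger receptor and arginase, differed most between hearts. It held 8 cycling cells beside 698 non-cycling cells in infarct 1, 12 beside 65 in infarct 2, and 81 beside 513 in infarct 3. These are shares of 1.13% (0.49 to 2.22), 15.6% (8.32 to 25.6) and 13.6% (11 to 16.7), so infarct 1 lay apart from the others and their intervals did not meet. After thinning the shares were 0.50%, 8.16% and 6.83%. Infarct 3 gave 81 of the 101 cycling cells of this cluster, so it is given by heart and not by a mean over cells. The 3 hearts were alike in label, and what set infarct 1 apart was not tested.

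Of the infarct cells that fell short of the rule, with 1 to 3 of the 7 genes, the ratio of their share to that of non-cycling cells lay at 1.06 in the MHC class II cluster, 1.29 in the Spp1 and Gpnmb cluster, and 0.90 in the Cd209a cluster, with the hearts pooled. In the Saa3 cluster it was 0.748, 1.74 and 1.27 in infarcts 1, 2 and 3.

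Cycling cells had been placed by their expression, so their levels of the genes that lead a cluster are a description. In the Cd209a cluster, cycling cells had 7736, 7700 and 7616 CPM (the UMIs of a gene per 1000000 UMIs, mitochondrial genes left out) of the MHC class II gene H2-Aa, and the dendritic-cell receptor gene Flt3 stood at 101, 77 and 52 CPM. Their C1qa was 173, 231 and 241 CPM, against 5393, 5776 and 4742 CPM in the cycling cells of the MHC class II cluster, so the label macrophage was not borne out for these 86 cells. Cycling cells of the Spp1 and Gpnmb cluster held 3955, 5272 and 3252 CPM of Spp1, below the 6614, 6924 and 4720 CPM of the non-cycling cells of the cluster. In the Saa3 cluster, cycling cells held 3376, 4789 and 2085 CPM of Arg1 beside 3409, 2128 and 1648 CPM in non-cycling cells, and Marco went from 0 CPM in the 8 cells of infarct 1 to 3236 and 978 CPM in infarcts 2 and 3.

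To find which genes went with cycling, counts were summed per heart over cycling and non-cycling cells, and both sums of a heart were compared in 1 fit with the heart as a block (a fit without the block is called unpaired). Of 11160 genes tested, 942 were higher in cycling cells and 644 lower at an adjusted p under 0.01 (edgeR quasi-likelihood test, Benjamini-Hochberg adjustment), which is 14.2% of all genes, 8.44% higher and 5.77% lower. The 7 rule genes and Ctsk were not tested. The cell-cycle genes are given as a description, because the rule selects their programme. Without the dendritic-like and granulocyte-like clusters 878 genes were higher and 601 lower, and without doublet-scored cells 982 and 708. With comparator cells matched on UMI number before thinning, which leaves fewer cells and 6317 genes tested, the counts were 526 and 267. A lower share in a summed sample can mean that fewer cells carry a transcript or that each carries less of it. These cannot be told apart here, and the mean UMIs per cell given below for some genes do not separate them either.

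The rule genes themselves stood at 806, 637 and 787 CPM for Mki67, 849, 646 and 626 CPM for Top2a, and 466, 507 and 459 CPM for Birc5, the survivin gene. Ube2c, of the anaphase ubiquitin machinery, reached 461, 435 and 401 CPM, and the kinetochore gene Cenpf 385, 325 and 303 CPM. Prc1, of the mitotic spindle midzone, held 335, 318 and 254 CPM and the replication factor Pclaf 514, 547 and 428 CPM. By the rule all are at 0 in non-cycling cells. Together, the 5 cell-cycle lists and the rule genes took 33258, 32262 and 30293 CPM in cycling cells against 4878, 4788 and 4711 CPM in non-cycling cells.

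The wider cell-cycle programme was raised almost as a whole. Higher were 51 of 54 DNA replication genes, 17 of 21 genes of nucleotide synthesis, 19 of 23 cyclin, CDK and E2F genes, 57 of 58 mitosis genes and 28 of 28 chromatin and tubulin genes, and none was lower. Mcm2, of the replication helicase, held 64.2, 32.5 and 48.6 CPM against 7.37, 6.56 and 7.06 CPM. Rrm2, of the enzyme that makes DNA nucleotides, held 88, 110 and 122 CPM against 0.73, 0.378 and 0.52 CPM, and mitotic cyclin Ccnb1 157, 119 and 108 CPM against 0.199, 0.315 and 0.149 CPM. The groups did not overlap for any of them. The linker histone Hist1h1b stood at 1220, 946 and 903 CPM against 11.4, 8.7 and 8.99 CPM, and Stmn1, which destabilises microtubules, at 1260, 1327 and 1165 CPM against 17.3, 26.7 and 25.6 CPM.

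Among the D-type cyclins, which couple growth signals to the cycle, only Ccnd1 was called in the main setting. These genes belong to the cell-cycle lists, so their values too are a description. Ccnd1 held 226, 175 and 171 CPM against 119, 122 and 118 CPM, a log2 fold change of 0.55 (SE 0.11). The groups did not overlap, but the call was lost with another draw of the thinning, at 1000 UMIs, and within the MHC class II or the Spp1 and Gpnmb cluster alone. Ccnd2 (21.7 to 52.3 CPM against 17.3 to 31.7) and Ccnd3 (57.8 to 103 CPM against 46 to 65.3) did not pass, with log2 fold changes of 0.24 (SE 0.23) and 0.49 (SE 0.16). Ccnd3 was called without infarct 1 (0.59) and without thinning (0.48).

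Among the inhibitors of the cycle some genes rose and others fell. Of 19 tested genes of CDK inhibitors and other brakes, 4 were higher and 6 lower, beside 8.44% and 5.77% of all genes. The 4 higher genes, Cdkn3, Cdkn2c, Rbl1 and Cdkn2d, may belong to the programme that the rule selects. They are therefore given as a description. Cdkn2c, an INK4 inhibitor of CDK4 and CDK6, rose from 9.1, 14.1 and 11.7 CPM to 95.1, 106 and 72.1 CPM (log2 fold change 2.85, SE 0.19). Cdkn2d rose by 1.67 and Cdkn3, a phosphatase of CDK1 and CDK2 that is itself made in mitosis, by 6.75 on the log2 scale. Mxd4, a MYC antagonist, fell from 97.9, 111 and 116 CPM to 28.5, 48.7 and 45.5 CPM (log2 fold change -1.49, SE 0.16, adjusted p = 6.6e-07), and the antiproliferative genes Btg2 and Btg1 fell by 0.88 and 0.82. Within the Spp1 and Gpnmb cluster alone neither Mxd4 (-1.38) nor Btg1 (-0.36) was called. Btg1 was also not called within the MHC class II cluster alone (-0.53). The p53 target Cdkn1a, which encodes p21, did not pass, at 223, 316 and 351 CPM against 316, 290 and 349 CPM, and its groups overlapped.

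Genes that process and translate RNA rose together. Of 24 spliceosome genes 23 were higher and none lower (median log2 fold change 0.93, beside -0.05 over all genes), and of 21 ribosome biogenesis genes 12 were higher and none lower (median 0.58). Snrpd1, a core protein of the spliceosomal snRNPs, held 262, 256 and 257 CPM against 90.3, 86.4 and 82.9 CPM (log2 fold change 1.48, SE 0.10, adjusted p = 1.4e-09). Lsm2 rose by 2.26 and the nucleolar protein gene Nop58 by 1.22, and the chaperone gene Hsp90aa1 rose by 0.81. Within the Spp1 and Gpnmb cluster alone Nop58 (1.10) and Hsp90aa1 (0.43) were not called, and Nop58 also not within the MHC class II cluster alone (1.12).

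Of 39 genes of oxidative phosphorylation 16 were higher and none lower, with a median log2 fold change of 0.32. Cycs, the electron carrier cytochrome c, held 152, 206 and 185 CPM against 109, 97.8 and 85.5 CPM (0.82, SE 0.12, adjusted p = 6.4e-05), and Atp5j, of the ATP synthase, rose by 0.66. The call of Cycs was lost at 1000 UMIs (0.46) and within the MHC class II cluster alone (0.81). Of 17 glycolysis genes 1 was higher and 2 were lower, beside 8.44% and 5.77% of all genes, which is too few to read a shift from. The summed glycolysis list held 3977, 4123 and 4490 CPM in cycling cells against 4372, 2914 and 2799 CPM, lower in infarct 1 and higher in infarcts 2 and 3. The 1 higher gene was Gapdh, at 1388, 1505 and 1537 CPM against 1187, 846 and 785 CPM (0.58, SE 0.10, adjusted p = 0.00032), a call lost with comparators matched on UMI number (0.27) and unpaired (adjusted p = 0.015). None of the 17 cholesterol synthesis genes passed in either direction, and their median was 0.02.

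**Figure D1:**
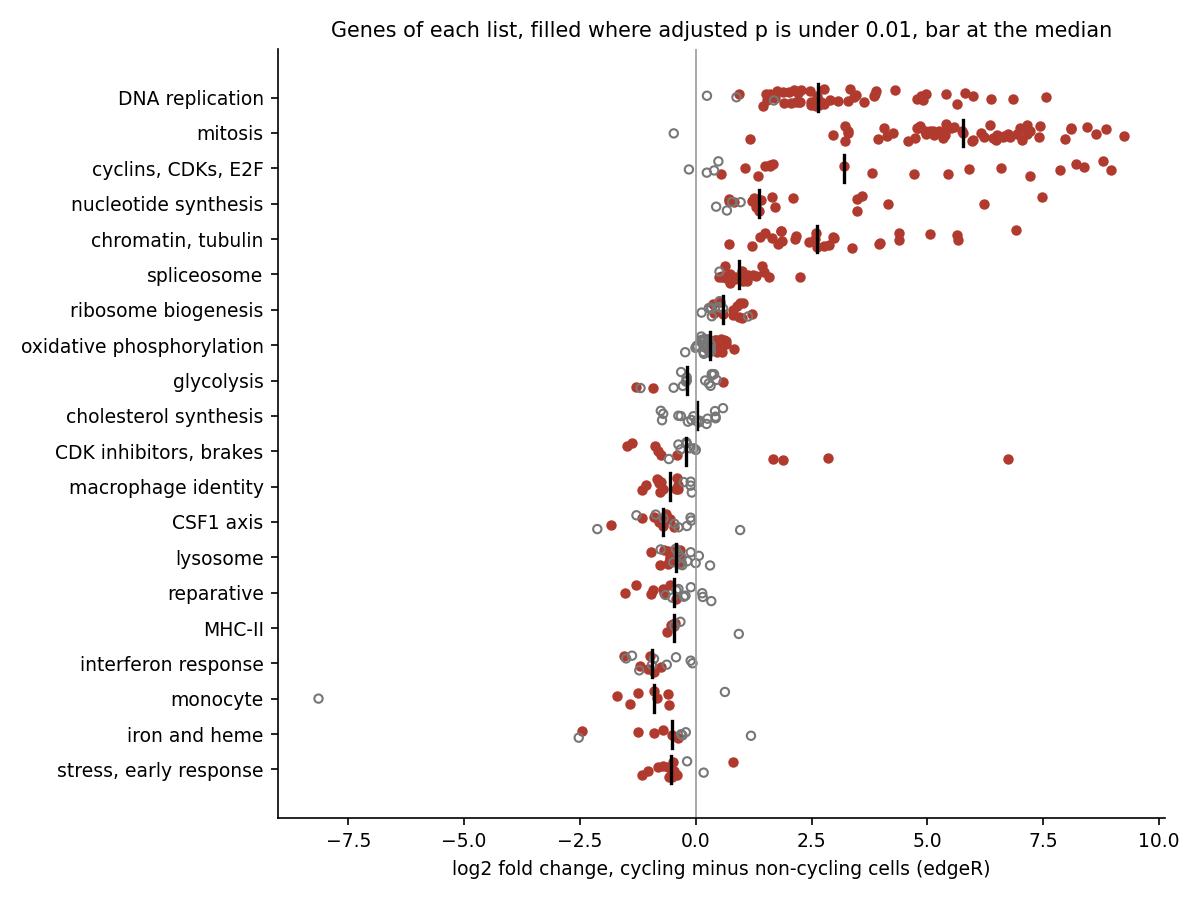
Log2 fold change of cycling over non-cycling cells for the genes of 20 lists (x axis), 1 point a gene, filled where adjusted p was under 0.01, with a black bar at each list's median. The cell-cycle lists lie far to the right, spliceosome, ribosome biogenesis and oxidative phosphorylation lists moderately so, and the macrophage identity, lysosome, MHC class II and interferon lists lie to the left, with medians of -0.56, -0.43, -0.47 and -0.95.

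Macrophage identity genes took a smaller share of the transcripts of cycling cells. Of 16 such genes, 12 were lower and none higher, and of 20 genes of the CSF1 axis 10 were lower and none higher. Csf1r held 449, 523 and 546 CPM in cycling cells and 771, 805 and 861 CPM in non-cycling cells, without overlap (log2 fold change -0.78, SE 0.08, adjusted p = 5.9e-07). Within the Spp1 and Gpnmb cluster alone the fall was not called (-0.33, adjusted p = 0.13). Lysozyme, Lyz2, held 5951, 7182 and 8018 CPM against 12659, 13783 and 14876 CPM (-1.07, SE 0.05, adjusted p = 2.4e-12). Adgre1 fell by 0.83 and the myeloid transcription factor genes Cebpa and Maf by 1.17 and 0.90. The fall of Adgre1 was not called within the Spp1 and Gpnmb cluster alone (-0.52).

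Of 12 genes of lipid efflux 5 were lower, and of 11 genes of iron and heme handling 6, with none higher in either list. Apoe, the lipoprotein that carries cholesterol out of macrophages, held 11742, 19102 and 11460 CPM against 29065, 43360 and 38796 CPM, a fall that was called in all 22 other settings (-1.52, SE 0.07, adjusted p = 4e-12). Selenop, a secreted selenoprotein, held 573, 668 and 688 CPM against 1530, 2025 and 1914 CPM, and Slc40a1, the iron exporter ferroportin, 2.38, 5.41 and 6.27 CPM against 19.1, 26.1 and 29 CPM (-2.46, SE 0.37). Of 27 lysosome genes 15 were lower and none higher, among them Ctss (-0.77) and Npc2 (-0.68). The cholesterol exporter gene Abca1 fell by 0.97. Slfn5, an interferon-inducible Schlafen gene, held 52.3, 50.5 and 43.9 CPM against 226, 225 and 217 CPM (-2.30, SE 0.13), and the chemokine gene Ccl8 47.5, 130 and 43.9 CPM against 210, 460 and 173 CPM (-2.05, SE 0.12). Within the Spp1 and Gpnmb cluster alone the falls of Ccl8 (-0.38) and Abca1 (-0.51) were not called. That of Slc40a1 was not called within the MHC class II cluster alone.

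**Figure D2:**
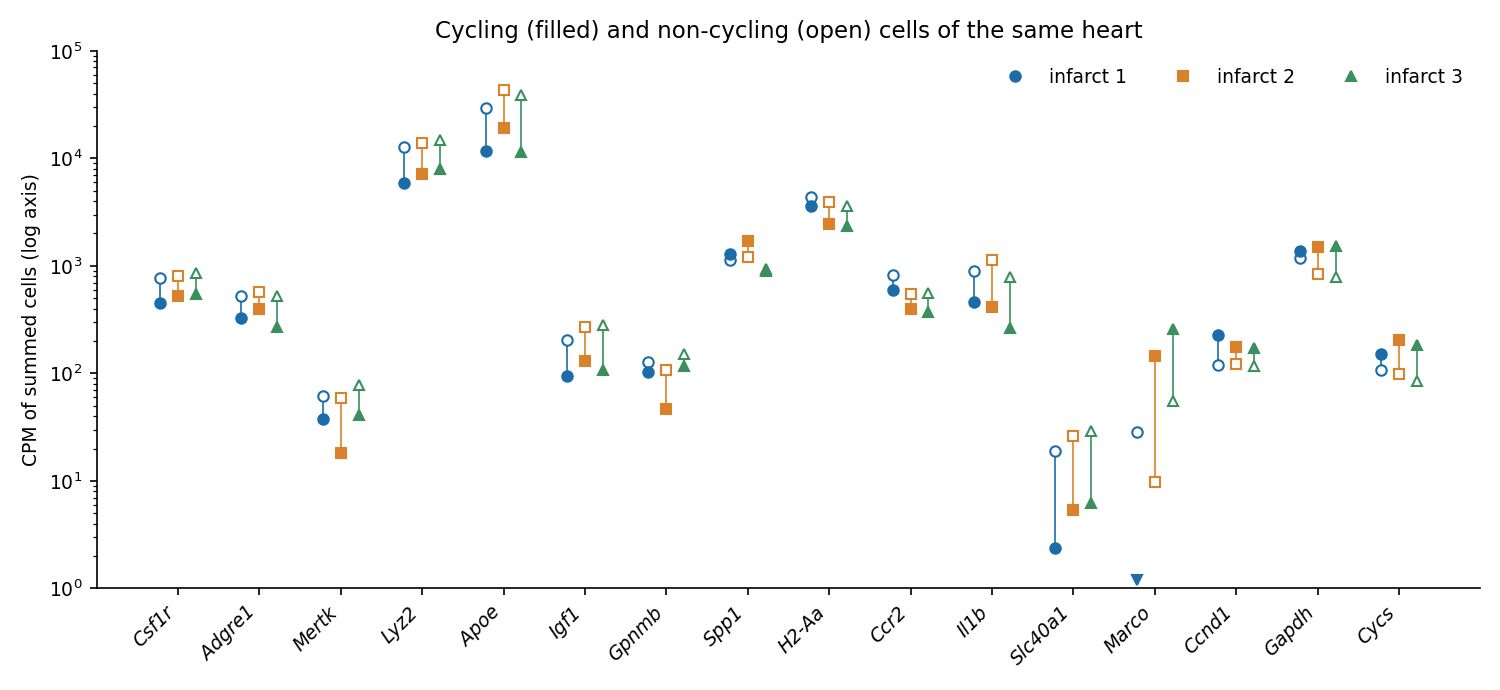
Level of named genes in CPM (log axis) in cycling (filled) and non-cycling (open) cells of infarcts 1, 2 and 3, joined within a heart. Csf1r, Lyz2 and Apoe lie lower in the cycling cells of every heart and Cycs and Gapdh higher, while Spp1 and Marco overlap between the groups. A triangle at the axis marks Marco at 0 UMIs in infarct 1.

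A smaller share was often not a smaller number of transcripts, because cycling cells held more UMIs in all. Before thinning, a cycling cell held on average 7.91, 8.43 and 8.19 UMIs of Csf1r in infarcts 1, 2 and 3, and a non-cycling cell 6.52, 6.67 and 6.93. The ratio of the means was 1.22 ± 0.0411 (SD, n = 3) for Csf1r, 1.44 ± 0.158 for C1qa and 1.24 ± 0.143 for H2-Aa, and 0.94 ± 0.0727 for Lyz2. It stayed below 1 in all 3 hearts for Apoe (0.679 ± 0.145), Selenop (0.607), Slfn5 (0.536), Slc40a1 (0.509) and Ccl8 (0.492), so the mean UMIs per cell of these genes were lower too. For Snrpd1 it was 5.53 ± 0.131, for Cycs 3.36 ± 0.365 and for Ccnd1 2.73 ± 0.389. The rule selects cells with many UMIs, so these ratios carry that selection.

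The genes that mark macrophage states were lower or did not pass, with few exceptions. Of 18 reparative genes 8 were lower and none higher. Gpnmb, a lysosomal glycoprotein of lipid-laden macrophages, held 102, 46.9 and 116 CPM against 128, 108 and 152 CPM, with overlap between hearts (-0.68, SE 0.15, adjusted p = 0.0023). The call was lost without infarct 2 (adjusted p = 0.068), without thinning, at 1000 UMIs (adjusted p = 0.044) and when the sums of a heart were not paired (adjusted p = 0.062). Spp1, osteopontin, held 1277, 1695 and 934 CPM against 1130, 1215 and 897 CPM and was not called (0.14, adjusted p = 0.25). Other settings called Spp1 in either direction. The log2 fold change was -0.55 with comparators matched on cluster, -0.63 with comparators matched on UMI number and -0.64 within its own cluster, each past the threshold. It was called higher in cells with at least 2 C1q genes (0.31) and without the Saa3 cluster (0.25). Igf1, a growth factor of the healing infarct, fell by 1.29, from 205, 271 and 280 CPM to 95.1, 130 and 108 CPM.

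Of 8 MHC class II genes 5 were lower and none higher. H2-Aa held 3600, 2451 and 2342 CPM against 4411, 3897 and 3606 CPM (-0.63, SE 0.07, adjusted p = 1.3e-06), and Cd74, the invariant chain, fell by 0.54. Neither fall was called with comparators matched on UMI number, and that of H2-Aa also not when the sums of 1 heart were not paired (adjusted p = 0.012). Of 15 interferon genes 6 were lower, among them Ifit3 (38, 61.4 and 29.8 CPM against 57, 108 and 67.8 CPM, log2 fold change -0.98). Ifit3 was not called with comparators matched on cluster, within the MHC class II cluster alone (-0.55) or unpaired (adjusted p = 0.067).

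Monocyte genes fell too, with 7 of 9 lower and none higher. Plac8 held 193, 93.9 and 124 CPM against 499, 426 and 303 CPM (-1.69, SE 0.14, adjusted p = 1.7e-08), and Ccr2, the receptor for monocyte entry, 592, 397 and 370 CPM against 822, 545 and 557 CPM (-0.61, SE 0.09, adjusted p = 2.5e-05). In the MHC class II cluster alone the log2 fold change of Ccr2 was 0.0027 and Plac8 was not called. Within the Spp1 and Gpnmb cluster alone neither Plac8 (-0.39) nor Ccr2 (-0.23) was called. The fall of Ccr2 was also lost unpaired (adjusted p = 0.037) and with comparators matched on UMI number. Il1b, the inflammatory cytokine, held 466, 415 and 262 CPM against 892, 1129 and 793 CPM (-1.43, SE 0.11, adjusted p = 5.6e-09) and was called in all 22 other settings. Among 14 immediate-early and stress genes, which respond within minutes and also to tissue digestion, 11 were lower and 1, Hsp90aa1, higher, with Junb at 618, 662 and 582 CPM against 1306, 1260 and 1332 CPM.

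The genes of the Saa3 cluster followed the hearts in which it cycled. Marco held 0, 144 and 259 CPM in cycling cells and 28.4, 9.77 and 55.5 CPM in non-cycling cells. It was called higher (2.11, SE 0.44, adjusted p = 0.0016), although infarct 1 went the other way. The call was lost unpaired (adjusted p = 0.054), by the DESeq2 Wald test (1.29, adjusted p = 0.79) and without thinning (1.92, adjusted p = 0.11). Saa3 held 273, 363 and 1127 CPM against 1657, 52.7 and 512 CPM and was not called (0.49, adjusted p = 0.60), but it was called in opposite directions without infarct 1 (1.65) and without infarct 2 (-0.70). It was also called without a filter on low counts (0.43) and, as lower, without the Saa3 cluster (-0.52). Arg1 held 162, 231 and 572 CPM against 439, 78.2 and 161 CPM and was not called (0.71, adjusted p = 0.18). Other settings called it higher, without infarct 1 (1.61) and without a filter on low counts (0.66), or lower, without the Saa3 cluster (-0.67). Of 11 resident macrophage genes 1, Lyve1, was higher, 2, Gas6 and Mrc1, were lower, and 8 did not pass. Lyve1, a hyaluronan receptor, held 33.3, 0 and 78.4 CPM against 12.5, 3.21 and 18.2 CPM. Its call (1.54, SE 0.33, adjusted p = 0.0021) was lost in 9 of 20 settings that gave a value, among them the fits without infarct 3, without the Saa3 cluster and without pairing (adjusted p = 0.15).

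Of 6 tested fibroblast genes 3 were higher, among them the collagen gene Col1a1 with 221, 12.6 and 114 CPM against 51.7, 12.1 and 18.2 CPM (1.94, SE 0.24). Col1a1 was not called unpaired (adjusted p = 0.057), by the DESeq2 Wald test (adjusted p = 0.11) or without thinning (0.64, adjusted p = 0.12). In infarct 1, 1 cell held 69.6% of the fibroblast UMIs of cycling cells and in infarct 3, 1 cell held 89.7%, while the 288 cells of infarct 2 held 15 such UMIs in all. Without the dendritic-like and granulocyte-like clusters Col1a1 stood at -1.09. At least 5 dendritic UMIs were found in 23 cycling cells (2.74%, against 2.31% of non-cycling cells), at least 5 granulocyte UMIs in 8, at least 5 endothelial UMIs in 4 and at least 5 B cell UMIs in none. The 76, 98 and 121 B cell UMIs of infarcts 1, 2 and 3 were spread over many cells, with at most 4 in a cell. T and NK cell genes gave 3 UMIs in all.

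The cells with 1 to 3 rule genes, which entered no test, are set beside the others as a description. The means of those with 2 or 3 genes lay between those with 0 and those with 4 or 5 for Apoe, Csf1r, Lyz2 and Il1b. Apoe averaged 37074 CPM over the 3 hearts with 0 genes, 35305 with 1, 25148 with 2 or 3, 13846 with 4 or 5 and 14237 with 6 or 7. Up to 4 or 5 genes it fell at each step in 2 of the 3 hearts, and in infarct 1 it was higher with 1 gene than with 0. Csf1r averaged 812, 831, 696, 557 and 483 CPM in the same order and Il1b 938, 852, 660, 380 and 388 CPM. In each of the 3 hearts the cells with 2 or 3 genes lay below those with 0 for Apoe, Lyz2, Csf1r, Adgre1, Igf1, H2-Aa, Cd74, Il1b, Selenop and Slc40a1. Spp1 ran the other way at first, from a mean of 1081 to 1378 CPM with 2 or 3 genes, and rose in all 3 hearts. With 6 or 7 genes the hearts differed, at 1192, 1827 and 567 CPM in infarcts 1, 2 and 3. Gpnmb averaged 129 CPM with 0 genes, 150 with 4 or 5 and 53.7 with 6 or 7. With 4 or 5 genes it held 186, 58.4 and 205 CPM by heart, so infarct 2 lay below its 108 CPM with 0 genes.

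**Figure D3:**
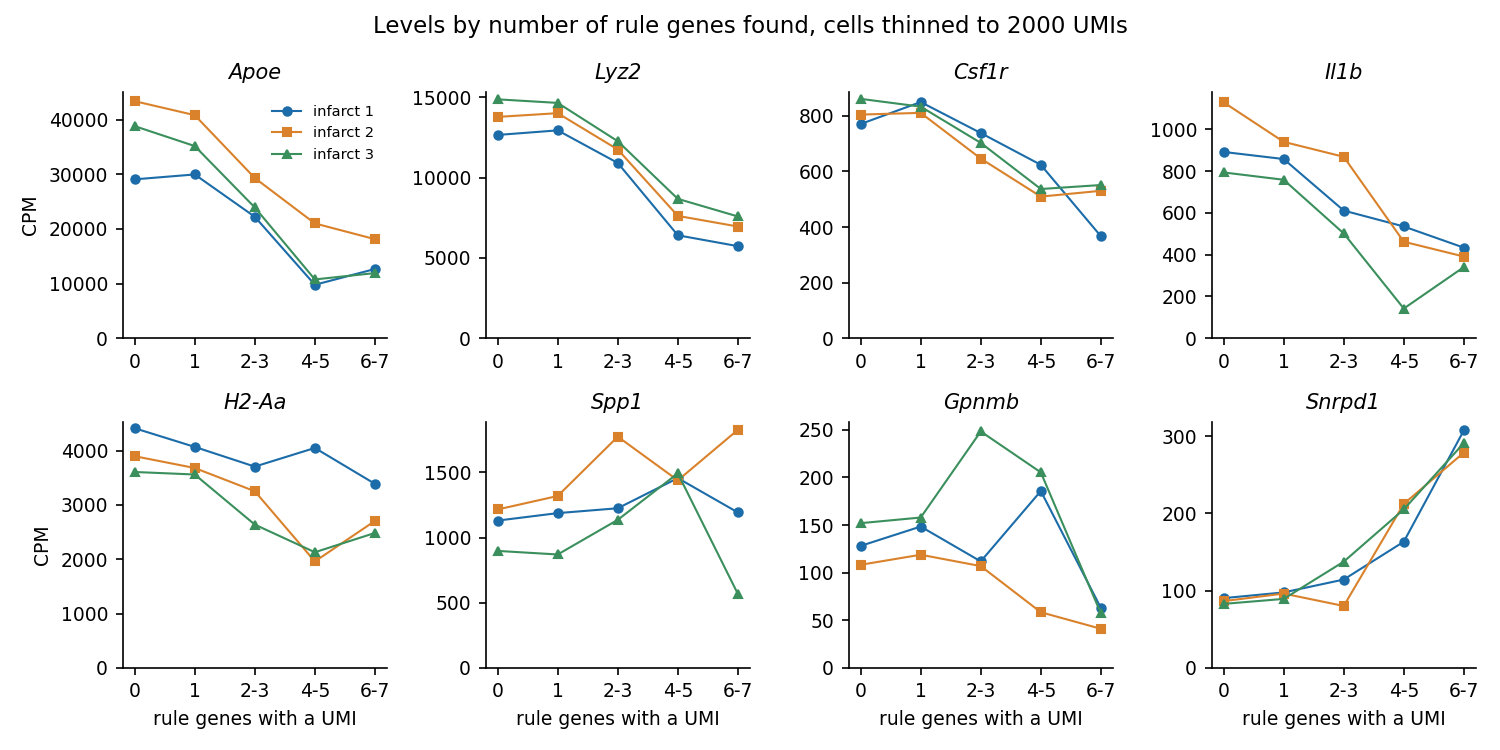
Level in CPM (y axis, from 0) of 8 genes in thinned cells of infarcts 1, 2 and 3, by the number of the 7 rule genes with a UMI (x axis). Apoe, Lyz2, Csf1r and Il1b step down from the cells with 1 gene to those with 4 or 5, and Snrpd1 rises from a mean of 86.5 CPM with 0 genes to 293 with 6 or 7.

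The cycling cells were then divided by whether S phase or mitosis genes led. Replication and nucleotide synthesis UMIs exceeded mitosis UMIs in 337 cells, here S-led, fell short of them in 469, mitosis-led, and tied in 33. S-led cells made up 42.7%, 41% and 37.8% of cycling cells in infarcts 1, 2 and 3. The sides are ranges of a score, and 146 of the 839 cells lay within 2 UMIs of the cut. By cluster the S-led share, hearts pooled, was 46.6% in the MHC class II cluster, 43.5% in the Spp1 and Gpnmb cluster, and 41.2% in the Cd209a cluster. In the Saa3 cluster it was 85.7%, 41.7% and 44% by heart, of 7, 12 and 75 cells that were not tied. In the Gdf15, Fcrls and Ccl3 cluster it was 19%, 35.9% and 13.8% by heart, and the 7 cells of the interferon-like and Ccr7 clusters were all mitosis-led.

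Few genes outside the lists that divided the cells were called: of 3716 tested, 34 were higher in S-led and 43 higher in mitosis-led cells (2.07% of all, 0.915% and 1.16%, edgeR, adjusted p under 0.01). These counts include further genes of S phase and mitosis. E2f1, Ccnd1, Ccnb2, Cdkn3 and Cdkn2d are genes of the cell cycle, by whose programmes the cells were divided, so their levels are a description. E2f1, the S phase activator, held 83.3, 83.4 and 95.2 CPM in S-led cells and 17.6, 13.3 and 10.8 CPM in mitosis-led cells (log2 fold change 2.70, SE 0.39). Ccnd1 held 322, 277 and 219 CPM against 150, 99.6 and 151 CPM (1.02, SE 0.19) and was called. Mitotic cyclin Ccnb2 held 88.8, 48.3 and 74.5 CPM against 322, 319 and 315 CPM, and the inhibitor genes Cdkn3 and Cdkn2d fell by 2.13 and 1.35 in S-led cells. Of macrophage genes, Lyz2 was higher in S-led cells by 0.38 (7004, 7789 and 8588 CPM against 4673, 6488 and 7266 CPM) and Ccr2 lower by 0.65 (444, 255 and 306 CPM against 709, 488 and 415 CPM), both with overlap between hearts. The calls of Ccnd1, Cdkn2d, Lyz2 and Ccr2 were lost unpaired (adjusted p = 0.012, 0.020, 0.19 and 0.16). Those of Lyz2 and Ccr2 were lost without infarct 1, and those of Ccnd1 and Ccr2 without infarct 2. With another draw of the thinning Ccr2 stood at -0.39 and was not called (adjusted p = 0.042). Without infarct 3 no gene was called in this comparison in either direction, and the DESeq2 Wald test called 0 higher and 5 lower.

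The same rule found 172 cycling cells among 10238 kept cells of the baseline library, 1.68% (1.44 to 1.95), below each of the 3 infarct hearts but with an interval that overlapped that of infarct 1. Kept baseline cells had a median of 6398.5 UMIs, against 8556.5, 8469.5 and 8504 in infarcts 1, 2 and 3, and the rule favours cells with many UMIs. Applied after thinning, the rule kept 1.11% of baseline cells (0.906 to 1.35), an interval that overlapped those of all 3 infarcts, in infarct 3 only at its edge (1.35 to 1.88). With 1 library there is no test, and the intervals cover counting error only. In the cycling cells of the unoperated heart Lyve1 held 118.7 CPM, and the resident genes Cd163 and Retnla 349.8 and 687.1 CPM. Folr2 and Timd4, also resident genes, held 184 and 12.5 CPM against 313 and 52.2 CPM in non-cycling cells, and the dendritic gene Cd209a 106 CPM (73.5 to 148) against 36.6 CPM (33.6 to 39.9). Gpnmb, Saa3 and Arg1 had 0 UMIs (each up to 11.5 CPM) and Marco 1.

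Set against the non-cycling cells of its own library, the baseline showed the same side as the infarcts for many genes. Csf1r held 830.8 CPM (734 to 937) against 1141 CPM (1124 to 1158), Apoe 5403 against 11464, Lyz2 6353 against 14367, Il1b 487.2 against 981.3, and Slfn5 50 against 243 CPM. Snrpd1 held 231.1 against 78.3 CPM and Ccnd1 265.5 against 184.7 CPM. Slc40a1, Lyve1 and Spp1 were among those that did not share a side. Slc40a1 held 50 CPM (28.6 to 81.2) against 36.9 CPM (33.8 to 40.2) at baseline, intervals that overlap, while it was lower in the cycling cells of all 3 infarcts. Lyve1 held 118.7 CPM (84.0 to 162.9) against 378.6 CPM, lower in cycling cells, while in infarcts 1 and 3 its level lay above that of non-cycling cells and in infarct 2 it was at 0. Spp1 held 46.8 CPM (26.2 to 77.3) against 66.5 CPM (62.4 to 70.9) at baseline, intervals that overlap, while its level was above that of non-cycling cells in all 3 infarcts. These differences were not tested.

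**Figure D4:**
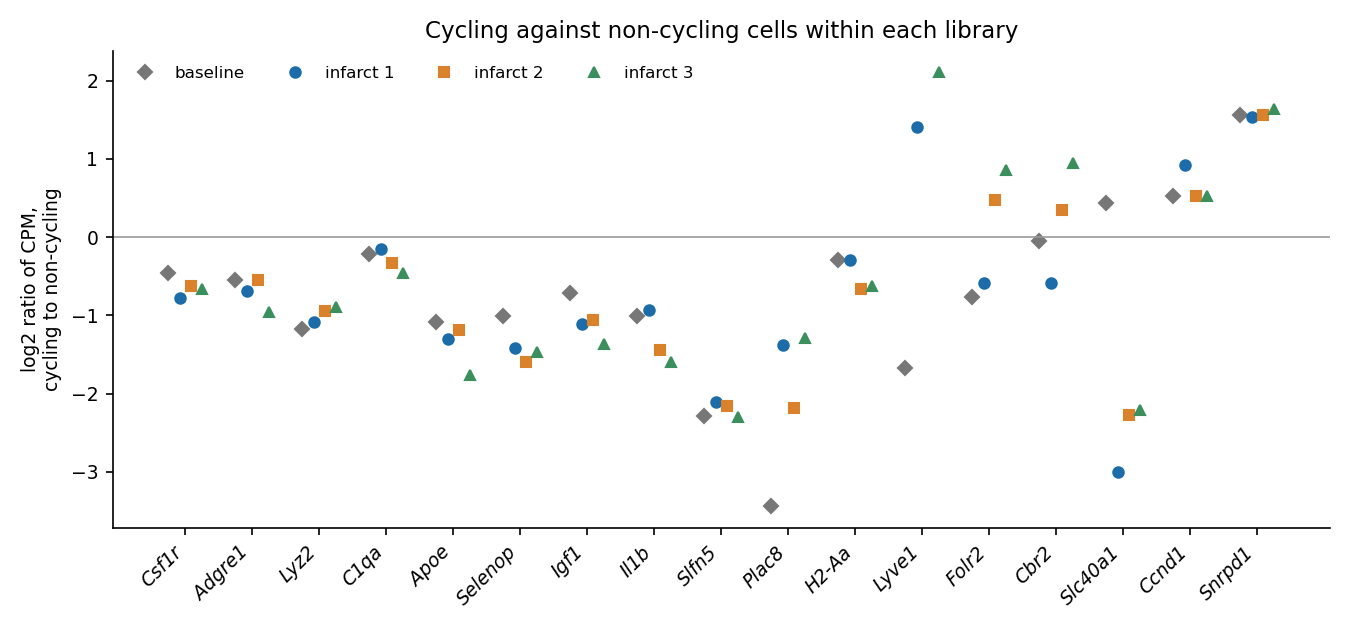
Log2 ratio of the CPM of cycling to non-cycling cells (y axis) for 17 genes, within the baseline library and within each infarct library. Apoe, Lyz2, Il1b and Slfn5 lie below 0 in all 4 libraries and Snrpd1 above, while Slc40a1 and Lyve1 lie on different sides at baseline and in infarcts. Lyve1 of infarct 2, at 0 UMIs in cycling cells, is not drawn.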

How the data were processed

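Sorted EGFP+ Ly6G- cardiac cells had been sequenced in droplet libraries, 3 infarct libraries of 1 heart each and 1 baseline library of 3 pooled hearts. The deposited values are raw counts of UMIs per gene and cell, made by the authors with Cell Ranger on mm10 (version 3.0.1 per the submitters' processing notes; the file headers and methods name a later one). The cell filter asked for 500 to 40000 UMIs and more than 200 detected genes. Members, gene lists and settings were chosen with earlier results of these data known. Cells with at least 2000 UMIs were thinned to 2000, and mitochondrial genes were left out. Non-cycling cells were clustered (scanpy 1.11.5, leidenalg 0.10.2, Python 3.11.15; 2000 variable genes without cell-cycle genes, 20 components, 25 neighbours, resolution aimed at 12 clusters), without integration. Counts summed per library were tested with edgeR 4.0.16 (R 4.3.3), TMM scaling, filterByExpr and the library as block, since both sums come from the same heart; the threshold was an adjusted p of 0.01. DESeq2 1.42.0 was an alternative. The replicates are separate hearts. Doublets were not removed; the highest Scrublet scores, up to 0.8% per 1000 cells, were removed as an alternative. The test was checked on simulated data, where it missed most of the smaller changes. For cycling against non-cycling cells it also missed most of the larger ones, so a gene that did not pass is not shown to be unchanged. Named genes were, from each of 36 lists, the first 3 and up to 4 higher and 4 lower called genes of largest change with 10 CPM or more, and the 10 highest and lowest of all genes outside the cell-cycle lists with 50 CPM or more, on the same side in 3 of 3 libraries; the same rule named the genes of the S-led comparison, and C1qa and Cd3e were added after their values were seen. Intervals cover counting error only. Other settings were another draw or depth of thinning, none of the filter, the block or the thinning, DESeq2 size factors, each library left out, stricter or looser rules, matched comparators, single clusters and other clusterings.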

Additional observations from a re-analysis of the deposited data

How the results depend on the processing

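Over all genes, 942 were higher and 644 lower in cycling cells. Leaving out 1 heart at a time gave 727 to 1066 higher and 417 to 811 lower. Fewer were called with comparators matched on UMI number (526 and 267), in the MHC class II cluster alone (306 and 234) and in the Spp1 and Gpnmb cluster alone (299 and 170), each with fewer genes tested, and more without thinning (1937 and 1394). Fewer lower genes were called by the DESeq2 Wald test (329) and at 1000 UMIs (420), and more without a filter on low counts (970). Without the replicate block, which joins the sums of 1 heart, 788 were higher and 371 lower, and the comparison of S-led with mitosis-led cells fell from 34 and 43 genes to 10 and 21. That comparison gave 70 and 65 with another draw, 53 and 77 without the filter, 254 and 240 without thinning, 0 and 5 by the DESeq2 Wald test, and 0 to 44 and 0 to 45 with 1 heart left out.

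Among clusters, the ratio of the Spp1 and Gpnmb cluster went from 2.43 to 1.78 and 1.49 with the rule of 3 or 4 genes after thinning. That of the Dusp2 cluster, 0.802, went to 0.947 with the single nearest cell, 0.59 with another draw, 1.09 with 20 clusters and 1.07 with 4 genes after thinning. The Ccl8 cluster went from 0.878 to 0.75 with 20 clusters and the Gdf15 cluster from 0.766 to 1.07 with 4 genes after thinning. The baseline share of 1.68% went to 1.27% with 5 genes and 1.11% after thinning. Not every cluster found a counterpart, in every other clustering, and those settings gave no value. Over the named genes of the cycling comparison and all other settings, 1049 values kept their direction and call or lack of one, 49 lost the call, 8 gained one and 10 turned: Spp1 (-0.63, -0.55 and -0.64 as given above), Saa3 (-0.70 without infarct 2, with 1.65 as the highest when 1 heart was left out, and -0.52 without the Saa3 cluster), Arg1 (-0.67 without the Saa3 cluster), Ccr2 (0.0027 in the MHC class II cluster alone) and Col1a1 (-1.06 in cells with C1q, -2.07 in the MHC class II cluster alone and -1.09 without the dendritic-like and granulocyte-like clusters). The settings that leave out or single out a named cluster other than the largest, match comparators on cluster or apply the rule after thinning were chosen after seeing the data. The cause of these changes was not tested beyond the fewer genes or cells that a setting leaves. Genes under about 10 CPM rest on few UMIs in 220 to 331 thinned cycling cells a heart.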
